A study of Mus musculus with 3 samples.

Results

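The antioxidant, glutathione and metallothionein genes were chosen by name: glutathione transferases, peroxidases and peroxiredoxins, the thioredoxin and glutaredoxin families, superoxide dismutases, catalase, the enzymes that make and reduce glutathione, the transcription factor NRF2 with its inhibitor KEAP1, the quinone reductase Nqo1 and the haem oxygenases, and the metallothioneins. The platform's annotation gave 74 single-gene probe sets for 57 of these genes, of 10833 single-gene probe sets and 8251 named genes on the array. The rule uses names only. RNA came from hippocampal area CA1 of C57BL/6J mice, an inbred strain, all young males, and was hybridised to 3 arrays that the labels number as replicates of 1 group. Every animal had been fear conditioned: 2 min in an unfamiliar chamber were followed by a floor-grid shock of 1 s at 0.5 mA, this was done 3 times, the mice went back to their home cage after a further 1 min, and RNA was taken at 6 h. The labels do not say whether the arrays held RNA of separate animals or of pools, so the spread between arrays may be technical. No unconditioned group was analysed here, and no value below measures an effect of conditioning.

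Neurons and glia turn over oxygen quickly and hold back the resulting superoxide and peroxides with enzymes in series. Superoxide dismutases turn superoxide into hydrogen peroxide, which catalase, glutathione peroxidases and peroxiredoxins then reduce. Glutathione and thioredoxin supply the electrons, and reductases that draw on NADPH restore both. Glutathione transferases couple glutathione to reactive lipids and foreign compounds, metallothioneins bind zinc and copper through their cysteines, and the transcription factor NRF2, held back by KEAP1, drives many of these genes.

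Values are deposited signals, in linear units, on arrays 1, 2 and 3 in that order, or as mean ± SD (n = 3 arrays). A gene with several probe sets is represented by the brightest unless stated. A gene was called measured when its mean signal lay above 175, the median of all values on the arrays, which stands in for a detection call. Signals of different probes cannot be set against each other as amounts of RNA. For the spread between arrays, signals were scaled to a common median and put on the log2 scale, and the range is the highest array minus the lowest. Of the marker genes with a probe set, 5 of 5 for CA1 and other pyramidal neurons were measured, as were 6 of 6 for astrocytes, 4 of 4 for oligodendrocytes, 5 of 5 for microglia, 6 of 6 for meninges and fibroblasts, 4 of 6 for choroid plexus and ependyma, 1 of 5 for endothelium and 1 of 3 for blood. The tissue thus held several cell types, and in such a mixture fewer cells of a type and less RNA per cell cannot be told apart. The ratio of 3' to 5' signal, a measure of RNA integrity and labelling, was 3.99, 1.21 and 3.94 for Gapdh. For Actb it was 2.57, 1.86 and 3.50. A higher ratio means less 5' signal for the same 3' signal. Array 2 had the lowest ratio for both genes. It stood apart from the other arrays for Gapdh, while for Actb array 1 lay between arrays 2 and 3. Choroid plexus and ependyma markers summed over 6 genes to 3879, 7580.2 and 2360.1, and without Ttr, their brightest gene, at 1334, 4257 and 94.2, to 2545, 3324 and 2266, with Aqp1 lowest on array 2. Markers of meninges and fibroblasts summed to 12709.7, 8531.6 and 7875, and without Ptgds to 3902, 3897 and 3148. Among these, Igfbp2 and Slc6a13 were highest on array 2. The 6 astrocyte markers summed to 21300.1, 20209 and 19491, and without Aldoc, their brightest gene, to 9131.5, 8742.5 and 9463. Array 3 was thus the lowest with Aldoc and the highest without it. Single markers also differed in order. Aqp4 was low on array 3, at 1072, 1264 and 531, Gfap was lowest on array 2 and Slc1a2 was highest there. Microglia markers summed to 3366, 4006 and 3945, and without Csf1r, their brightest gene, to 1750, 2740.5 and 1886. Oligodendrocyte markers summed to 21062, 22396 and 21535, and without Mobp, their brightest gene, to 8516, 10865 and 9005. Csf1r and Mobp themselves were lowest on array 2. The part of any of these in the results below was not tested.

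Most of the antioxidant genes were measured in CA1, and for 41 of the 44 measured the arrays lay within 2-fold of each other. Of the 57 genes, 44 were measured, or 77.2%, against 59.1% of all named genes, and 41, or 71.9%, lay above the threshold on each of the arrays, against 52.9%. Metallothioneins 1, 2 and 3, the mu-class glutathione transferases Gstm1 and Gstm5, the pi-class Gstp1, superoxide dismutase 1, peroxiredoxins 2 and 3 and thioredoxin gave strong signals on every array. The other 13 genes were under the threshold, among them the NRF2 inhibitor Keap1, the NRF2 target Nqo1 and several alpha-class and theta-class transferases. The genes nearest the threshold were Mgst1, at 129 ± 27.5, and Gpx5, at 115 ± 31.0, below it, and Txnrd2, at 180.3 ± 76.5, and Prdx4, at 189 ± 34.3, above it. The median log2 range of the measured genes was 0.44, against 0.47 over 4876 measured genes, and 3 of 44 had a highest array more than 2-fold above the lowest, or 6.82%, against 10.2%. These were Gss, Txnip and Txnrd2. The count was 0 without array 1, 1 without array 2 and 1 without array 3, against 6.49%, 2.89% and 5.56% of all measured genes. The gene was Txnip without array 2 and Gss without array 3. Txnrd2 was under the threshold without array 1 or without array 3, so it could not be counted there. In the limma variance test, which asks whether a probe set varied more between arrays than others of its level, 0 of 50 measured probe sets passed after adjustment over all 6218 measured probe sets, of which 1, or 0.0161%, passed. The lowest limma adjusted p among the 50 was 0.944. Before adjustment 1 of the 50, a probe set of Gss, had a p under 0.05, with the robust prior and with the plain one, or 2%, against 5.21% and 5.36% of all measured probe sets.

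**Figure D1:**
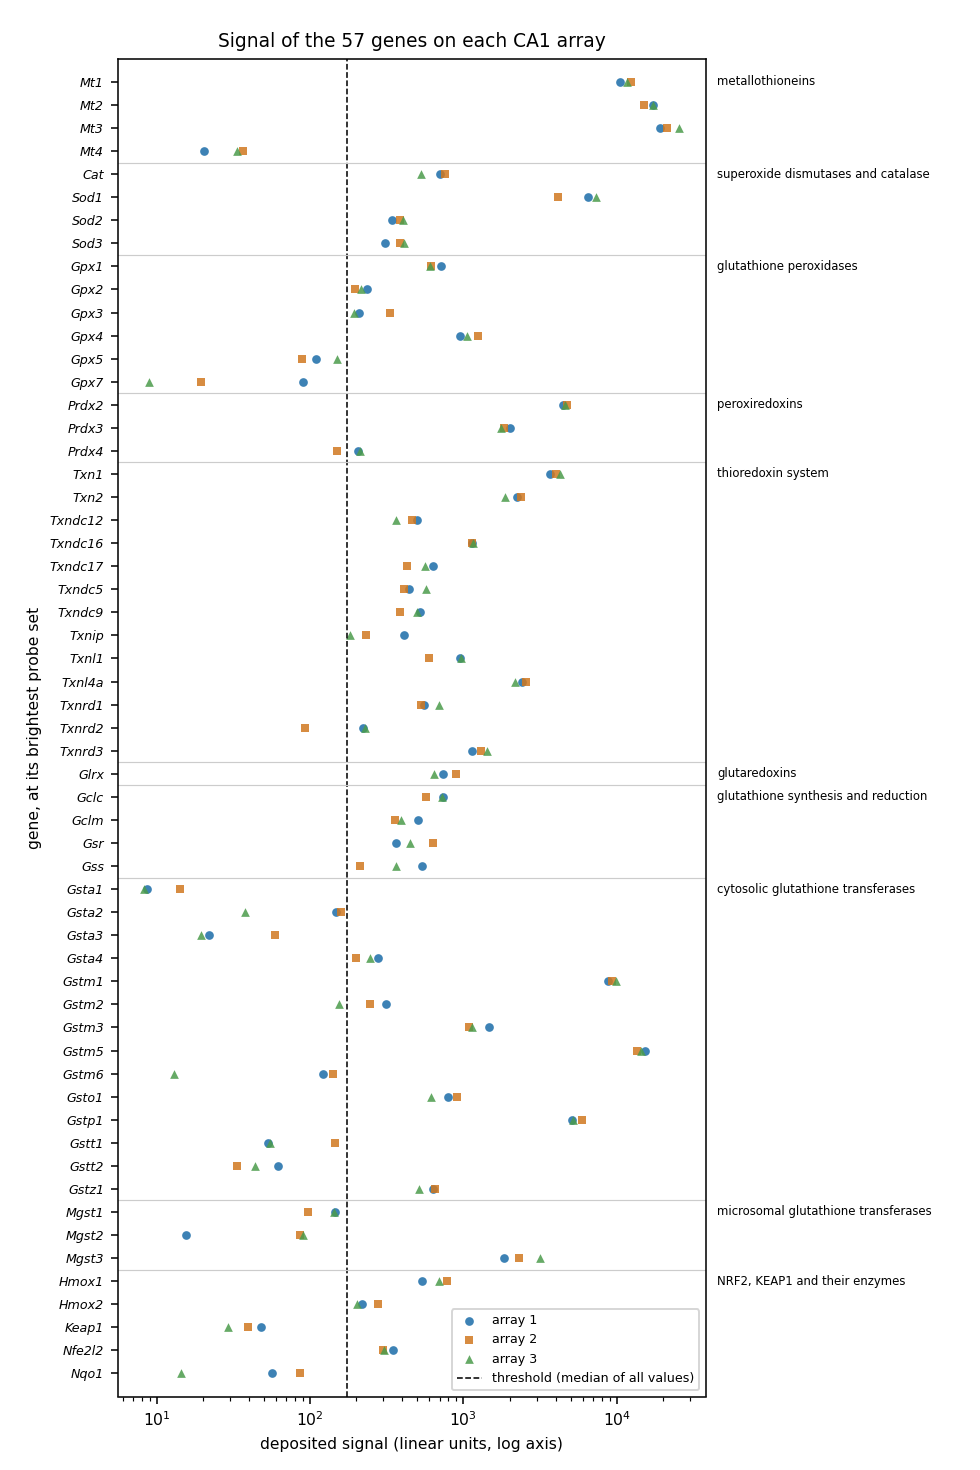
Deposited signal (horizontal, log axis) of each of the 57 genes at its brightest probe set, on array 1 (circles), array 2 (squares) and array 3 (triangles), grouped by role; the dashed line is the threshold of 175. The 3 marks of most measured genes lie close together, Sod1 and Txnrd2 have array 2 to the left of the others, and Mt4, Keap1 and Nqo1 lie left of the threshold on every array.

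Metallothioneins, small cysteine-rich proteins that bind zinc and copper, were strongly hybridised for 3 of 4 genes. Their genes are neighbours on 1 chromosome, and the stretches before the starts of all 4 are printed because 3 of the genes gave strong signals and the other was under the threshold. The sequences are RefSeq's, from build GRCm38.p6, each the 250 bases before the annotated start, on the + strand, 5' to 3'. Capitals mark matches to the core of the metal response element, searched as TGCACNC and TGCGCNC on both strands, which is the site type of the zinc-sensing factor MTF1. The window of Mt1 lies at chr8:94178839-94179088, that of Mt2 at chr8:94172368-94172617, that of Mt3 at chr8:94152357-94152606 and that of Mt4 at chr8:94136954-94137203.
Mt1: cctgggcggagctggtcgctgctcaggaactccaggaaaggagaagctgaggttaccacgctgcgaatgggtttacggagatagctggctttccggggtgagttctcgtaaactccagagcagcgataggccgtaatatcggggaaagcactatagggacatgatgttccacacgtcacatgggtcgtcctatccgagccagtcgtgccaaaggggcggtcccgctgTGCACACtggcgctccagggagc
Mt2: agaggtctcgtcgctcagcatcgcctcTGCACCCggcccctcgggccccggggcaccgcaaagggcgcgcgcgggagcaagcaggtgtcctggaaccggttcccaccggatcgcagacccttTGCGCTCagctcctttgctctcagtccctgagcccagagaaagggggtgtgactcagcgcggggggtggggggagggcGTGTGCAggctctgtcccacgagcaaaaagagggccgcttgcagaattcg
Mt3: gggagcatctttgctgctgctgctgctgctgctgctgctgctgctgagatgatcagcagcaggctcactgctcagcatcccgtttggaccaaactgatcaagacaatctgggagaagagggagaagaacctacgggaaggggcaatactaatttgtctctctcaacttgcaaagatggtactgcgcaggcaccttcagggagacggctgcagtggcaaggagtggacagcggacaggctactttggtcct
Mt4: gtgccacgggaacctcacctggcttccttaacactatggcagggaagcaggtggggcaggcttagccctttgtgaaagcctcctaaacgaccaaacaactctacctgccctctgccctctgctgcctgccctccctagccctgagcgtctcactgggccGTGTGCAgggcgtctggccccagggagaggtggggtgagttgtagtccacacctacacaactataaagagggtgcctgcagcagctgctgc

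The core was found 1 time in the Mt1 window, 3 times in that of Mt2, 0 times in that of Mt3 and 1 time in that of Mt4. The Mt1 match began 23 bases before the annotated start. Those of Mt2 began 223, 128 and 50 bases before it, and that of Mt4 began 91 bases before it. Both the strongly hybridising Mt1 and Mt2 and the weak Mt4 thus carried a match, and Mt3 had none in this window. Whether the annotated starts are those used in CA1 was not examined, and bases outside the windows were not searched. The windows may therefore cover unlike parts of the promoters, and the counts are not those of whole promoters. Such short cores are frequent: of 32851 windows of this length in the RefSeq table, 21.4% held at least 1. A match is a description of the letters and not evidence of binding.

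Mt1, a metallothionein of most tissues that metals and glucocorticoids induce, gave 10501, 12348 and 11662. Mt2, its close relative with like expression, gave 17179, 15168 and 17184. Array 1 was the lowest for Mt1 and array 2 for Mt2, so the pair did not share an order. Mt3, the metallothionein typical of brain, gave 19224, 21409 and 25453. Array 3 was the highest for Mt3, with a log2 range of 0.45 and a limma adjusted p of 0.988. For Mt1 and Mt2 the log2 range was 0.23 and 0.23. Mt4, known from stratified epithelium, gave 20.2, 36.3 and 33.5, under the threshold on each array. Mt1 and Mt2 are close relatives, and how far their probe sets share transcripts was not examined. Of the metal-handling genes, 10 of 13 with a probe set were measured, 0 passed the limma variance test over all probe sets, and 1 of the 10 measured, Ccs, was more than 2-fold apart between arrays, against 10.2% of all measured genes. Ccs, Mtf1 and Slc30a3 are named for their roles and were chosen after their values were seen. Mtf1, the metal-sensing factor itself, gave 511, 541 and 577. The neuronal vesicle zinc transporter gene Slc30a3 gave 2996, 3219 and 2855, and the zinc exporter gene Slc30a1, an MTF1 target, gave 126, 55.7 and 107, under the threshold. The members of that list with the largest log2 range were Atp7b, a copper pump gene, at 218, 239 and 51.4, Cp, the ceruloplasmin gene, at 46.2, 6.60 and 150.0, and Slc30a1. These 3 were under the threshold on average, and Atp7b was above it on arrays 1 and 2.

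All 4 genes that remove superoxide or decompose hydrogen peroxide without a thiol were measured on every array. Sod1, the copper-zinc enzyme of the cytosol, gave 6533, 4139 and 7369. Array 2 was the low one, while arrays 1 and 3 were close to each other, and the log2 range was 0.88. In limma the unadjusted p of Sod1 was 0.058 and the adjusted p 0.944, so its spread did not pass the variance test. With 3 arrays, not passing does not show that the spread was ordinary for its level. Ccs, the chaperone that loads copper into SOD1, gave 242, 261 and 474, and there array 3 was the high one. Sod2, the manganese enzyme of mitochondria, gave 342, 385 and 403, and Sod3, the secreted copper-zinc enzyme, gave 309.8, 384 and 408. Both were lowest on array 1 and highest on array 3, with log2 ranges of 0.28 and 0.44. Cat, the peroxisomal catalase gene, gave 702, 758 and 527 at a probe set of the type that matches a sequence family. Its other probe set, with the plain suffix, gave 160.4, 55.9 and 166, under the threshold and lowest on array 2, where the family-type probe set was highest.

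Glutathione peroxidases reduce hydrogen peroxide and lipid peroxides at the expense of glutathione, and 4 of 6 were measured. Gpx4, which protects membranes by reducing phospholipid peroxides, gave 948, 1252 and 1063. Gpx1, the cytosolic enzyme, gave 718, 611 and 603. Gpx3, the secreted plasma enzyme, gave 208, 331 and 194, and array 2 stood above both others, with a log2 range of 0.72 and a limma adjusted p of 0.988. The summed signals of choroid plexus and ependyma, of microglia and of oligodendrocyte markers, given above, were highest on that array too. This held with and without the brightest gene of each, and the part of these cell types was not tested. Gpx2, known from the gut lining, gave 237, 197 and 214, just above the threshold on each array. Gpx5, known from the epididymis, gave 109, 88.4 and 149 and, at its other probe set, 91.7, 27.1 and 166. Gpx7, an enzyme of the endoplasmic reticulum, gave 90.3, 19.4 and 8.90, so neither of these was measured.

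Peroxiredoxins, which reduce peroxides through a cysteine that thioredoxin restores, included 2 of the 5 genes with the smallest spread at their brightest probe sets. Prdx2, the cytosolic enzyme abundant in neurons, gave 4454, 4763 and 4630.3 at its brightest probe set, with a log2 range of 0.10. That probe set does not carry the plain suffix, and the other 2 do. A second probe set, highest on array 1 and lowest on array 3, gave 2127, 1629 and 1358, with a log2 range of 0.60. The third gave 11.5, 13.0 and 3.80, near the bottom of the scale. Which of the 3 reports the transcript best cannot be told from these values. Prdx3, the mitochondrial enzyme, gave 2015, 1843 and 1754, with a log2 range of 0.16. Prdx4, the enzyme of the endoplasmic reticulum, gave 204, 149.6 and 213, and it was under the threshold on array 2.

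All 13 genes of the thioredoxin system and its relatives were measured, 12 of them on every array. Txn1, the cytosolic thioredoxin, gave 3678, 4019 and 4268, and Txn2, the mitochondrial one, gave 2246, 2375 and 1865. Their log2 ranges were 0.26 and 0.30, with array 3 the highest for Txn1 and the lowest for Txn2. Txnrd1, the selenium-containing reductase of the cytosol, gave 558, 526 and 689.9. Txnrd2, its mitochondrial counterpart, gave 221, 92.1 and 228. Array 2 was under the threshold and arrays 1 and 3 were just above it, so the log2 range of 1.36 rests on weak signals, and the limma adjusted p was 0.988. Txnrd3, a reductase known from testis, gave 1137, 1307 and 1429.8 at a probe set whose suffix marks relaxed design rules and 62.5, 73.2 and 31.9 at another of that type.

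Txnip, the thioredoxin-interacting protein that inhibits thioredoxin and limits glucose uptake, was 1 of the 3 genes more than 2-fold apart between arrays, but on 1 probe set only. The brighter probe set, whose suffix marks shared probes, gave 407, 231 and 182, with array 1 high and a log2 range of 1.12 (limma adjusted p = 0.971). With 50 added to each signal in place of a lower limit on signals, its range was 0.94, under 2-fold. The other, with the plain suffix, gave 199, 237 and 234, with array 1 the lowest and a log2 range of 0.28. The 2 probe sets thus put array 1 at opposite ends.

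Txnl1, a proteasome-associated thioredoxin-like protein, gave 948, 598 and 969, with array 2 below both others. Txndc9, a partner of the cytosolic chaperonin, gave 522, 389 and 501, and Txndc17, a small cytosolic disulfide reductase, gave 631, 431 and 559. For these 3 genes array 2 was the lowest. The thioredoxin-domain genes of the endoplasmic reticulum, Txndc5, Txndc12 and Txndc16, gave 472 ± 83.0, 444 ± 71.2 and 1140.2 ± 8.88. Txndc16 had the smallest log2 range of all 44 genes, 0.07. Txnl4a, which shares the thioredoxin fold but belongs to the spliceosome, gave 2389.8 ± 198, with a log2 range of 0.19. Glrx, the cytosolic glutaredoxin that removes glutathione from proteins, gave 742, 901 and 640.2 and was highest on array 2. A further 4 probe sets carry a symbol of a peroxiredoxin or glutaredoxin together with that of another gene in the annotation and were not used.

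**Figure D2:**
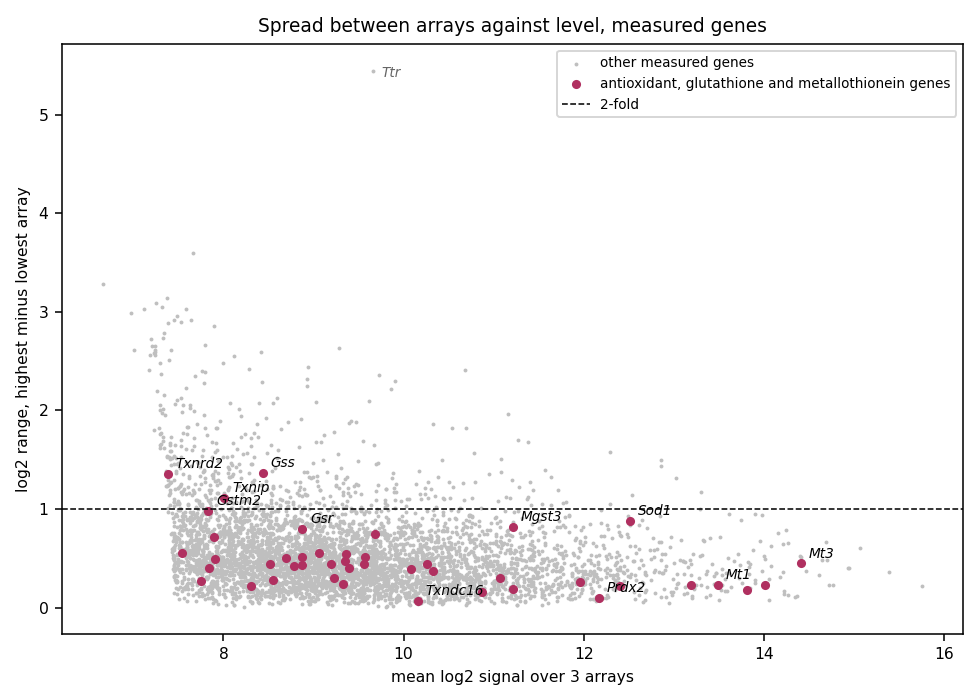
Log2 range between the 3 arrays (vertical) against mean log2 signal (horizontal) for 4876 measured genes, with the 44 measured antioxidant, glutathione and metallothionein genes in dark red; the dashed line marks 2-fold. Gss, Txnrd2 and Txnip lie above the line and the other 41 below it; Ttr, the gene past the variance test, is labelled for scale.

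Every gene of glutathione synthesis and reduction was measured on all arrays, with a median log2 range of 0.65 over 4 genes, against 0.44 over the 44. Gclc, the catalytic subunit of the rate-limiting glutamate-cysteine ligase, gave 739, 567 and 721. Gclm, its modifier subunit, gave 505, 358 and 391. Both were lowest on array 2, with log2 ranges of 0.40 and 0.50. Gss, glutathione synthetase, which adds the glycine, gave 541, 210.2 and 364. Array 1 was high and array 2 low, with a log2 range of 1.37, or 2.59-fold after scaling, an unadjusted p of 0.0488 and an adjusted p of 0.944 in limma. The second Gss probe set, of the relaxed-rule type, gave 216, 235 and 217, with a log2 range of 0.12 and array 2 the highest. Averaged over both probe sets, the log2 range of Gss was 0.63. Without array 3 the range of Gss at its brightest probe set passed 2-fold, and without array 1 or array 2 it did not. Gsr, glutathione reductase, gave 363, 635 and 449, with array 2 the highest and a log2 range of 0.80 (limma adjusted p = 0.988). At the brightest probe sets the reductase ran opposite to the 3 synthesis genes on array 2, where their shifts were negative and its own was 0.63. For Gss this direction depended on the probe set.

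Genes that feed or use the pathway were measured in 8 of 8 cases with a probe set, from a list of 14. In that list 0 genes passed the limma variance test over all probe sets, 1 of 8 had an unadjusted p under 0.05, against 5.21% of all measured probe sets, and 1 of 8 was more than 2-fold apart between arrays, against 10.2% of all measured genes. That gene was Ahcy, whose enzyme splits S-adenosylhomocysteine upstream of cysteine synthesis, at 1232, 523 and 579.8. Slc1a1, the neuronal glutamate and cysteine transporter gene, gave 401, 737 and 479.7, and Slc1a4, a neutral amino acid transporter gene, gave 1302, 1067 and 1699.5. Array 2 was the highest for Slc1a1 and the lowest for Slc1a4. The NADPH-supplying enzymes were measured in 7 of 7 cases. Of these, 0 passed the limma variance test at an adjusted p, and 0 had an unadjusted p under 0.05, against 5.21% of all measured probe sets. Pgd, of the pentose phosphate pathway, gave 260.1, 452 and 319, the cytosolic malic enzyme gene Me1 gave 1012, 775 and 1259.7, and the mitochondrial isocitrate dehydrogenase gene Idh2 gave 266, 426 and 294. Array 2 was the highest for Pgd and Idh2, as for Gsr, and the lowest for Me1.

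Cytosolic glutathione transferases were measured for 8 of 14 genes, with measured and unmeasured members in the mu and alpha classes. Of the mu class, Gstm5, known from brain and testis, gave 15332, 13603 and 14399 and Gstm1 gave 8774, 9367 and 9957. Gstm3 gave 1475, 1093 and 1141, with array 1 the highest. These 3 values come from probe sets of the sequence-family type, and the mu-class genes are close relatives, so a signal may be shared between them. The probe sets of a single mu-class gene differed widely: those of Gstm5 gave 15332, 13603 and 14399, then 2435, 2396 and 2175, then 193, 179 and 109, then 90.5, 207 and 154. The second of these carries the plain suffix, and like the brightest it was highest on array 1. The other probe sets of Gstm1 and Gstm3, both of the relaxed-rule type, gave 392, 316 and 445 and 413, 283 and 519, lowest on array 2 and highest on array 3.

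Gstm2 gave 312, 246 and 154 at its brighter probe set, under the threshold on array 3, with a log2 range of 0.98 (limma adjusted p = 0.988). Its plain-suffix probe set gave 47.8, 43.3 and 143, with array 3 the high one. The direction for Gstm2 therefore depended on the probe set. Gstm6 gave 121, 142 and 13.0 and 145, 106 and 19.9, under the threshold on every array, and both probe sets were lowest on array 3. Gstp1, the pi-class enzyme, gave 5094, 5963 and 5223, with a log2 range of 0.22. Gsto1, an omega-class enzyme that also reduces dehydroascorbate, gave 789, 904 and 614. Gstz1, a zeta-class enzyme of tyrosine breakdown, gave 637, 653 and 512. Gsto1 and Gstz1 were lowest on array 3. Of the alpha class, Gsta4, which conjugates the lipid peroxidation product hydroxynonenal, was the member measured, at 278, 199 and 247. The alpha-class genes Gsta1, Gsta2 and Gsta3 gave 10.3 ± 3.27, 115 ± 67.2 and 33.5 ± 22.2. The theta-class genes Gstt1 and Gstt2 gave 84.2 ± 52.2 and 46.4 ± 14.7. All 5 were under the threshold on each array.

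Microsomal glutathione transferases are membrane proteins, and 1 of 3 was measured. Mgst3, which also reduces lipid hydroperoxides, gave 1845, 2302 and 3159, with array 3 high and a log2 range of 0.82 (limma adjusted p = 0.971). Its second probe set gave 62.1, 25.1 and 54.4, under the threshold on each array. Mgst1, the enzyme abundant in liver, gave 145, 96.8 and 144, and Mgst2, which can make leukotriene C, gave 15.5, 86.1 and 89.6 and 17.5, 34.4 and 96.2.

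**Figure D3:**
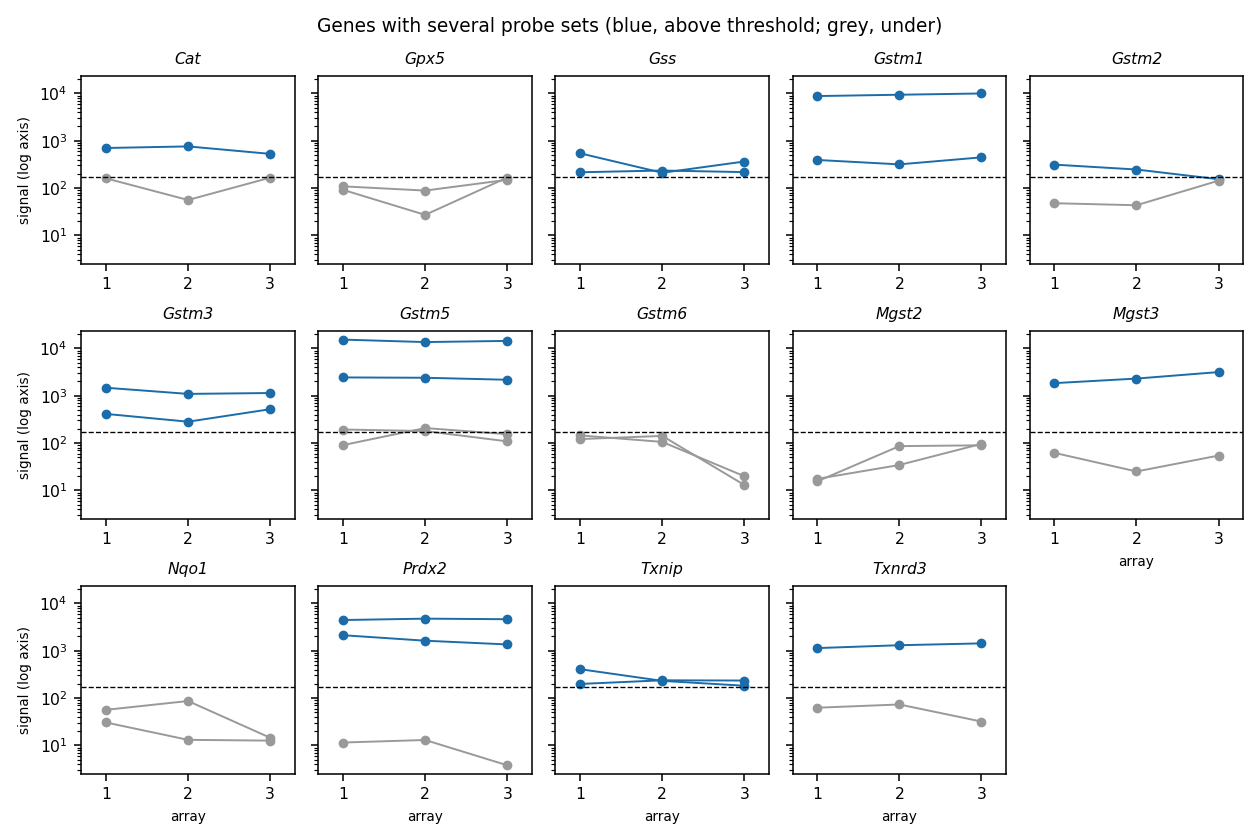
Deposited signal (vertical, log axis) on arrays 1, 2 and 3 for the 14 genes with more than 1 probe set, 1 line per probe set, blue where its mean lay above the threshold of 175 (dashed) and grey where it did not. The lines of Gss, Gstm2 and Txnip cross or run in opposite directions, and those of Mgst3, Prdx2 and Txnrd3 lie far apart.

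The order of the arrays was compared between probe sets of the same gene. Of 14 genes with several probe sets, 6 had more than 1 above the threshold: Gss, Gstm1, Gstm3, Gstm5, Prdx2 and Txnip. In 2 of the 6, Gstm1 and Gstm5, these probe sets had their highest deposited signal on the same array. In 0 of the 6 did they share both the highest and the lowest array. The like share over all genes with several probe sets was not counted, so these counts describe the 6 genes only. Of the 74 probe sets, 55 carried the plain suffix and 19 another. Most of these mark shared, family or relaxed-rule probes, and those of Gsta1 and of the brightest Prdx2 probe set are of further types.

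NRF2 itself and both haem oxygenases were measured, whereas KEAP1 and NQO1 were not. Nfe2l2, the gene of NRF2, gave 348, 301 and 304, with a log2 range of 0.21. Hmox1, the inducible haem oxygenase and a classical NRF2 target, gave 534, 779 and 689.7, with array 1 the lowest. Hmox2, the constitutive enzyme of neurons, gave 217, 277 and 202. Keap1, which marks NRF2 for degradation, gave 48.0, 39.4 and 29.0. Nqo1, a quinone reductase used as a marker of NRF2 activity, gave 56.4, 86.6 and 14.5 and 30.5, 13.1 and 12.6. Signals under the threshold are weak and leave the presence of the transcript unknown. Of 13 further NRF2 partners and targets with a probe set, 9 were measured. Among the 9, 0 passed the limma variance test at an adjusted p or at an unadjusted p under 0.05. Of all measured probe sets 5.21% had such an unadjusted p. Also, 0 of the 9 were more than 2-fold apart, against 10.2% of all measured genes. Ephx1, the epoxide hydrolase gene, gave 69.2, 74.8 and 216, the small MAF gene Maff gave 34.3, 92.6 and 107, and Mafk, its relative and a partner of NRF2, gave 297, 431 and 208. These 3 had the largest log2 ranges of that list, and the first 2 were under the threshold on average. Of the 9 measured genes, 5 had their highest signal on array 2, against 32.6% over all measured genes, and 3 had their lowest there, against 43.1%. Array 2 was also the highest for 4 of 7 NADPH-supply genes and 5 of 10 metal-handling genes. It was the highest for 3 of 8 genes that feed or use the glutathione pathway. In these lists it was the lowest for 1, 2 and 4 genes, so the tally was not particular to the NRF2 list.

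The core of the antioxidant response element, the site type of NRF2, was searched as TGACNNNGC on both strands of the same 250-base windows. Of the 57 genes, 49 had at least 1 window in the RefSeq table, with 64 windows in all. The core was found in 9 of the 64, or 14.1%, against 10.2% of all windows. The metal response core was found in 15 of the 64, or 23.4%, against 21.4%. Among members the antioxidant core was present in a window of Gclm, Gstm5, Nfe2l2, Sod1, Txnrd1, Txndc5 and Mt2, which were measured, and of Gsta3 and Mgst1, which were not. It was not found in the window of Nqo1, which says only that these letters are not in that stretch.

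The antioxidant genes did not follow 1 array as a body. Of the 44 measured genes, 14 had their highest scaled signal on array 1, 13 on array 2 and 17 on array 3, or 31.8%, 29.5% and 38.6%, against 28.8%, 32.6% and 38.6% of all measured genes. Array 1 was the lowest for 14 of 44, array 2 for 18 and array 3 for 12, or 31.8%, 40.9% and 27.3%, against 29.9%, 43.1% and 27%. The median log2 shift, an array's value minus the mean of the other 2, was 0.07, -0.04 and 0.06 on arrays 1, 2 and 3, against 0.0039, -0.065 and 0.060 over all measured genes. The signs on arrays 2 and 3 turned under quantile normalization, to 0.0058 and -0.0038, and under cyclic loess, to 0.036 and -0.034, so no direction is given for the set. By role, the shift on array 2 was -0.37 for the 4 genes of glutathione synthesis and reduction. It was -0.26 for the 13 of the thioredoxin system and 0.33 for the 3 of the NRF2 group. In size, these were the 3 largest array 2 medians among groups with more than 1 measured gene. The other such groups ran from -0.075 to 0.078. The glutathione synthesis group includes Gss, whose direction on array 2 depended on the probe set. The medians of the 3 named groups kept their sign under no scaling, quantile normalization and cyclic loess. In the main scaling 3 of 4, 9 of 13 and 1 of 3 genes were negative there, against 2707 of 4876 measured genes. The thioredoxin count was 7 of 13 under each alternative, against 2586, 2627 and 2526 of 4876, and those of the other groups did not change. Without a test across animals these medians and counts describe the 3 arrays. Array 2 was also the one with the lowest 3' to 5' ratios of Gapdh and Actb, 1.21 and 1.86, whose part was not tested.

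**Figure D4:**
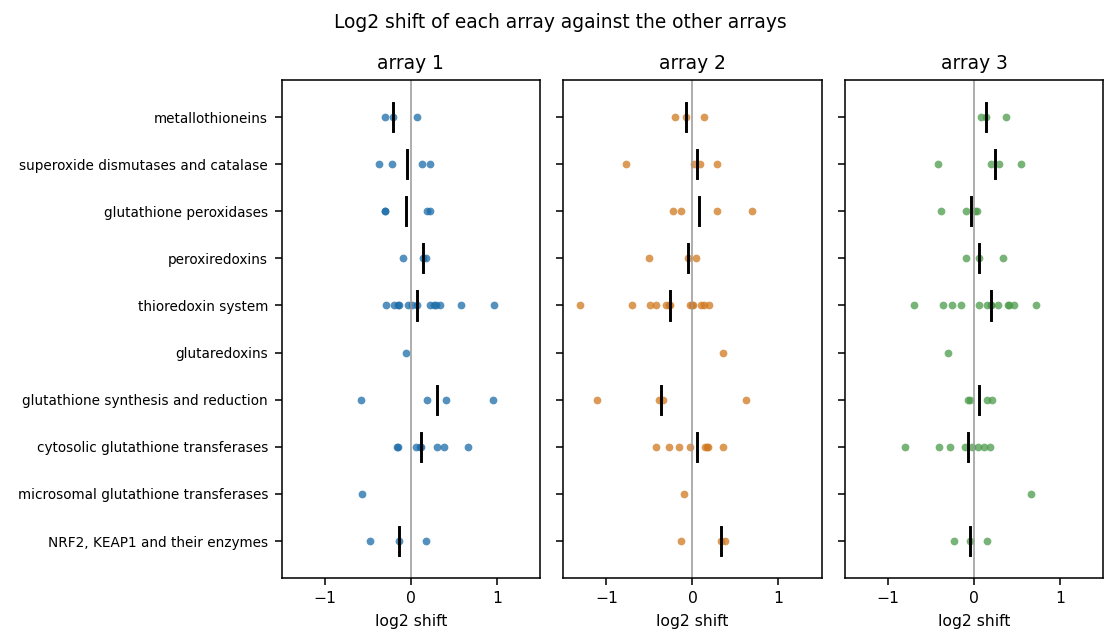
Log2 shift of each measured gene (points) on arrays 1, 2 and 3, by role, with the shift taken against the mean of the other arrays; black bars are medians of groups with more than 1 gene. Points of most groups lie on both sides of 0 on every array, and on array 2 most points of glutathione synthesis and of the thioredoxin system lie left of 0.

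A stricter pattern, chosen after the values were seen, asked for 1 array more than 0.5 log2 units from both others while those lay within 0.25 of each other. Array 2 was below in this way for Sod1, Txnl1 and Txnrd2, 3 of 44 genes or 6.82%, against 5.41% of all measured genes. It was above for Gpx3, or 2.27%, against 4.37%. For array 1 the count was 0 above and 0 below, against 1.66% and 1.58%, and for array 3 likewise 0 and 0, against 2.5% and 2.26%.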

How the data were processed

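The authors deposited linear signal intensities, 1 for each probe set on each array; their program, background correction and scaling are not stated in the labels or the file. With 2% of values trimmed from either end, every array had a mean of 500.3, so a common scale had been set, and 0 columns of other samples were present. Of 12488 probe sets 66 were controls. Of the rest, 10833 had 1 gene symbol in the platform annotation, 396 had several and were not named, and 1193 had none. Entrez identifiers matched the GRCm38.p6 gene table for 10817 probe sets and changed 0 symbols.

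Probe sets with a mean above 175, the median of all values, were called measured. Signals were scaled to a common median over these (factors 0.991, 0.987 and 1.02), floored at 47.5, the 25th percentile, and log2-transformed. For the variance between arrays, limma 3.58.1 (R 4.3.3) compared each probe set with a robust intensity-dependent prior (fitFDistRobustly, tails 0.05 and 0.1), fitted on all 6218 measured probe sets with Benjamini-Hochberg adjustment at 0.05, and tested on simulated data. Precision is limited by the 3 arrays, and how small a range the variance test can find is not given here.

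Every member gene is named. Those given in most detail are the 10 with the largest and the 5 with the smallest log2 range, genes with several probe sets, the metallothioneins, superoxide dismutases and catalase. For further lists the 3 largest ranges are given, and other genes named there were chosen after their values were seen. The members and lists were chosen with earlier results of these data known. Alternatives changed the scaling, floor, threshold, probe sets, prior and arrays.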

Additional observations from a re-analysis of the deposited data

How the results depend on the processing

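No paired analysis was possible because the arrays form 1 group. The count of genes more than 2-fold apart, 3 in the report, was 6 with the threshold at the 25th percentile and with none, against 21.5% and 18.1% of all genes. It was 0 with the threshold at the 75th, against 5.53%, and 1, Txnrd2, with all probe sets of a gene averaged, against 9.27%. It ran from 0 to 1 when 1 array was left out: 0 without array 1, Txnip without array 2 and Gss without array 3. Txnrd2 was under the threshold without array 1 or without array 3 and could not be counted there. With the threshold at the 75th percentile 26 genes were measured, fewer by construction, and 5 and 9 had their highest signal on arrays 1 and 3. Of 129 alternative values that describe the set, those 10 moved and 119 did not, where a count had to stay within 1.5 times and a median within 0.23 log2 units, the members' median SD between arrays. In 302 further values for 21 named genes, 0 changed side of the limma threshold, and the lowest adjusted p was 0.32. The number of genes highest on each array was not run without an array, and the shift of an array left out has no value. No detection calls were used, so how far a weak signal lies above background is unknown.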
